A study of Mus musculus with 3 samples.

Results

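Nuclei of the submandibular gland of irradiated, pilocarpine-treated mice were compared with those of non-irradiated mice, gene by gene, by single-nucleus RNA sequencing, which counts the RNA held in each nucleus. The comparison takes 2 of the 3 libraries of the series, with 1 library on each side. Nuclei were kept where at least 500 genes were detected and at most 5% of the unique molecular identifiers (UMIs, a count of captured RNA molecules) were mitochondrial. This left 10635 of 12062 barcodes in the non-IR library and 8376 of 10288 in the IR + pilocarpine library, together 19011 of the 27633 kept nuclei of the series. All mice were wild-type per the labels. The non-irradiated mice received no treatment. The other mice were irradiated and given pilocarpine from day 30 to day 90, and their glands were taken 90 days after irradiation per the title and 93 days after it per the protocol. The third library came from irradiated mice given saline, and its values stand beside those of the 2 libraries compared. The libraries are called non-IR, IR + saline and IR + pilocarpine below, where IR stands for irradiation. The labels do not give a strain, sex, radiation dose, hour of collection or number of animals. The non-IR mice are not said to have received saline, so effects of irradiation, of pilocarpine and of its carrier cannot be told apart here. With 1 library a side there was no test. Every interval below is a 95% interval for counting error only, and no difference can be set against a spread between animals.

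The submandibular gland secretes saliva from acinar cells, which release water and secretory proteins when acetylcholine acts on muscarinic receptors. Ducts then modify the saliva, and in rodents the granular ducts add growth factors and kallikreins. Contractile myoepithelial cells wrap the acini. Ionizing radiation damages DNA, which activates the p53 pathway, and salivary glands are known to lose secretion after it. Pilocarpine is a muscarinic agonist that drives salivary flow.

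Summed over kept nuclei, the non-IR library held 25566617 UMIs and the IR + pilocarpine library 33358056. The median nucleus held 1536 and 2048 UMIs, and 25 barcodes occurred in both libraries. The gland's own markers were strong in all 3 libraries. Mucl2, a mucin-like product of acinar cells, stood at 41139 CPM (UMIs of a gene scaled to 1000000 UMIs of its library) in the non-IR library and 46110 in the IR + pilocarpine library. Acinar RNA was also counted in nuclei of other classes. In endothelial-like nuclei, which should lack Mucl2, it stood at 36417 and 45856 CPM, against 48217 and 54969 in acinar-like nuclei. Values of abundant acinar genes in other classes are therefore read as background. Y-linked genes had 9, 11 and 8 UMIs in the non-IR, IR + saline and IR + pilocarpine library, and Xist stood at 1085, 1128 and 1179 CPM, so the libraries were alike in sex-linked genes.

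Among 15811 genes with at least 50 UMIs in the 2 libraries together, 708 (4.48%) were at least 2-fold higher in the IR + pilocarpine library by CPM and 127 (0.803%) at least 2-fold lower. With a minimum of 10 UMIs, the level used for gene lists, 1541 of 19505 genes (7.9%) were higher and 416 (2.13%) lower. The counts give a background for the lists below. On the scale used for lists, 11909 of 19494 gene symbols (and 8521 of 15901 in acinar-like nuclei) had a ratio above 1, against which the counts of ratios above 1 are to be read. With the class shares of nuclei held at those of the non-IR library, 384 genes with at least 50 UMIs were at least 2-fold higher. Log2 ratios of lists were taken on CPM + 1, which understates changes of low genes. Of the gene lists, those of interferon, antigen presentation and p53 genes had the highest medians. Among genes with at least 50 UMIs, Bpifa2 had the highest log2 ratio, at 3.97, and Rnf212b the lowest, at -4.70.

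**Figure D1:**
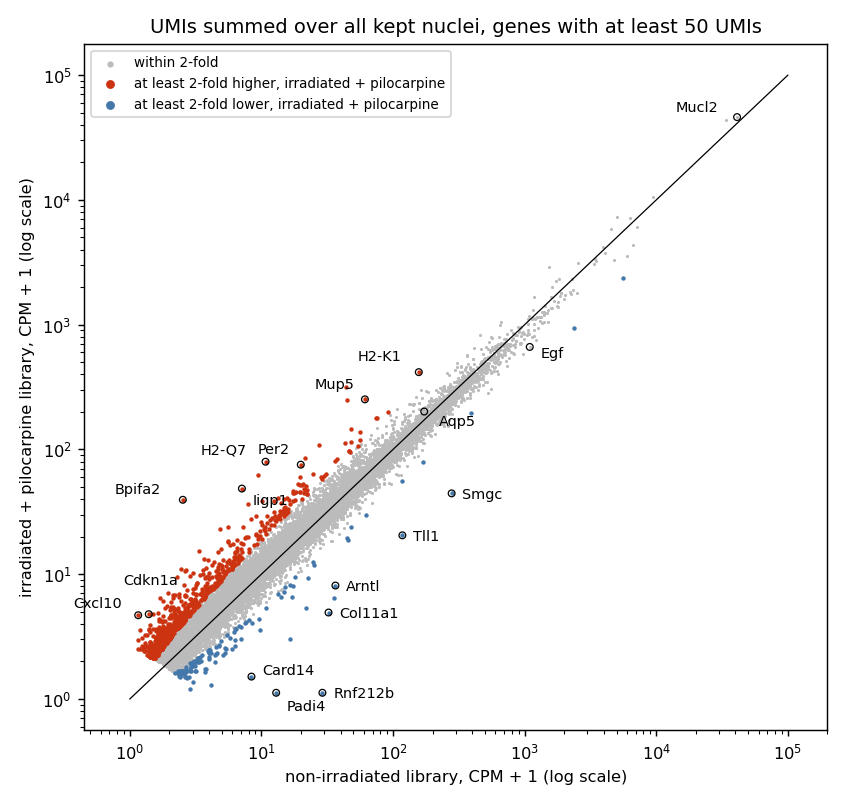
Each point is a gene with at least 50 UMIs, with its CPM + 1 in the non-IR library on the horizontal axis and in the IR + pilocarpine library on the vertical axis, both on log scales, and equality on the diagonal. The 708 genes at least 2-fold higher are red, the 127 at least 2-fold lower are blue, and labelled genes are circled, with Bpifa2 far above the diagonal and Rnf212b far below it.

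**Figure D2:**
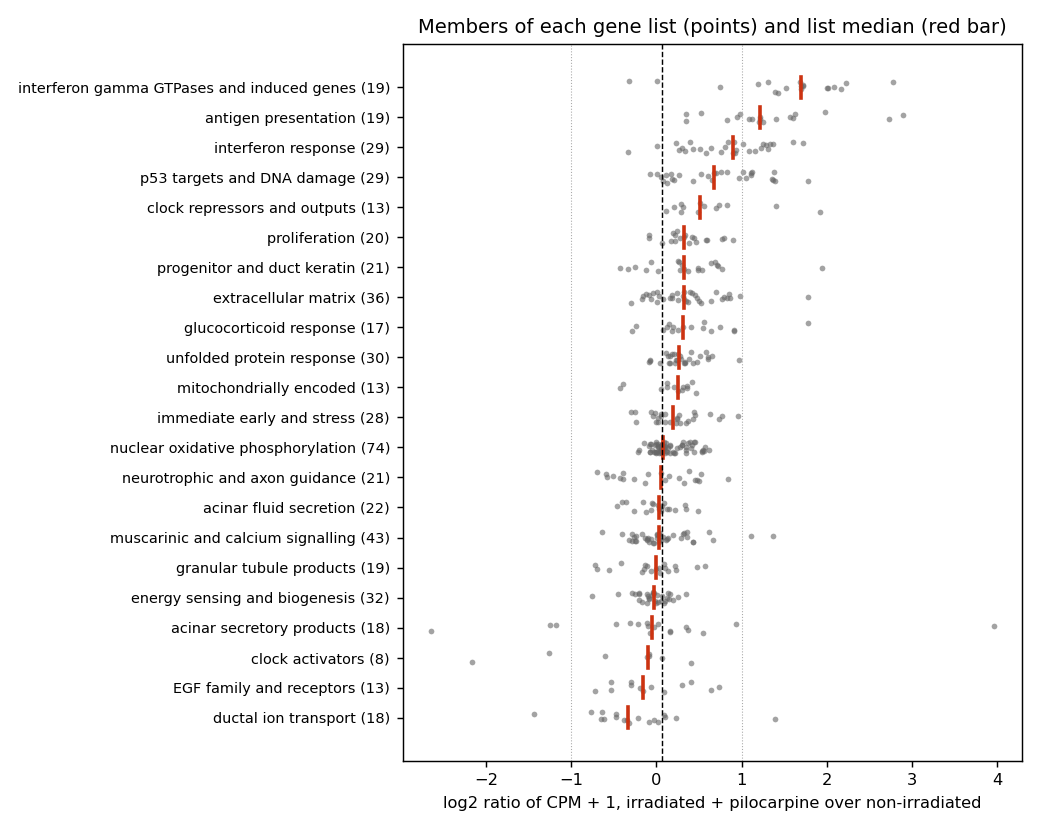
Each point is a list member with at least 10 UMIs, placed by its log2 ratio of CPM + 1 (IR + pilocarpine over non-IR); red bars are list medians, the dashed line is the median of all genes and dotted lines mark 2-fold. The list of interferon gamma GTPases, chosen after its values were seen, has the highest median at 1.70, and ductal ion transport the lowest at -0.33.

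Antigen presentation genes were mostly higher in the IR + pilocarpine library. Class I molecules show peptides from inside the cell to T cells, and the immunoproteasome and the transporter Tap supply those peptides. Of 19 measured members, 14 were at least 2-fold higher and none was 2-fold lower, with a median log2 ratio of 1.21 against 0.07 for all genes with at least 10 UMIs. H2-K1, a classical class I heavy chain, stood at 156 CPM in the non-IR, 199 in the IR + saline and 415 in the IR + pilocarpine library. The last was 2.66-fold above the first (2.57 to 2.76). The IR + saline library lay nearer to the non-IR one for this gene. H2-Q7, a non-classical class I chain, stood at 9.74, 30.4 and 78.7 CPM in the same order, 8.08-fold higher (7.09 to 9.24), and its neighbour H2-Q6 at 8.41, 21.4 and 61.4 CPM. These 2 genes are near-identical copies (chr17:35439155-35443773 and chr17:35424850-35430055, GRCm38), so the split of counts between them is uncertain. B2m, the light chain shared by class I molecules, was 2.38-fold higher (18.6 to 44.3 CPM). The immunoproteasome subunits Psmb8 and Psmb9 were 3.82-fold and 3.39-fold higher. Nlrc5, the transactivator of class I genes, went from 20.6 CPM in the non-IR library to 84 in the IR + pilocarpine library, a 4.08-fold difference (3.72 to 4.49), with 42.4 in the IR + saline library. Members closer to no change were Tapbp at 1.29-fold, Psmb10 at 1.41-fold (0.983 to 2.04) and Tap2 at 1.46-fold.

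The difference in class I genes was also measured within classes of gland cells. Nuclei of all 3 libraries were clustered together and named from marker genes, without using the genes of the lists. The acinar-like class was held by different clusters in the 2 libraries: clusters 0 and 1 had 3408 and 3059 non-IR but 788 and 418 IR + pilocarpine nuclei, and clusters 2 and 3 had 186 and 331 against 1609 and 1902. Genes that themselves differed, Rnf212b and Mup5 among them, lead these clusters, so their sizes are given only to say where the class lies. In acinar-like nuclei, 13 of 19 members were at least 2-fold higher, against 808 of 15906 genes (5.08%) higher and 536 (3.37%) lower in that class. H2-Q7 went from 29 UMIs (2.24 CPM) in non-IR to 735 UMIs (56.8 CPM) in IR + pilocarpine acinar-like nuclei, 25.4-fold higher (17.5 to 38.1), and stood at 5.44 CPM in IR + saline ones. Nlrc5 was 9.19-fold higher there (7.34 to 11.6), with 6.56, 13.3 and 60.3 CPM in the non-IR, IR + saline and IR + pilocarpine library. In myoepithelial-like nuclei H2-K1 was 3.44-fold higher (2.74 to 4.36) and in granular or striated duct-like nuclei 1.95-fold (1.58 to 2.41). Class II genes, which mark macrophages and other antigen-presenting cells, were also higher over all nuclei, with H2-Ab1 at 2.65-fold and Cd74 at 2.22-fold. H2-Aa and H2-Ab1 were at least 2-fold higher within acinar-like and within myoepithelial-like nuclei as well, as were H2-Eb1 and Cd74 within the latter. No class II gene was counted as 2-fold higher in fibroblast-like or granular or striated duct-like nuclei. Markers of macrophages and of T or NK cells were higher too. Of 9 macrophage markers, 7 were at least 2-fold higher, and their summed level went from 55.5 to 121 CPM. Of 8 measured T or NK cell markers, 5 were at least 2-fold higher, and all 9 listed summed to 35.1 and 72.1 CPM. Ptprc is on both lists and was at least 2-fold higher, so these counts and sums overlap. B or plasma cell markers differed from the macrophage and the T or NK ones. Of 7 measured, none was 2-fold higher and Igha and Igkc were at least 2-fold lower. All 9 listed summed to 253 and 259 CPM. That list also holds Ebf1, which stood at 2017 and 2350 CPM in pericyte or smooth muscle-like nuclei. Its sum is therefore not particular to B or plasma cells. Without macrophage-like and T or NK-like nuclei, a choice made after seeing the data, the list's median was 1.20 and 14 members were at least 2-fold higher.

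GTPases and chemokines induced by interferon gamma were counted as a list of their own after the largest values had been seen, so their count describes and supports nothing. These GTPases attack vacuoles of intracellular microbes. Of 19 measured members, 17 were at least 2-fold higher, with a median log2 ratio of 1.70, and both values were the same without macrophage-like and T or NK-like nuclei. Iigp1, an immunity-related GTPase on chromosome 18, stood at 6.1 CPM in the non-IR, 15.5 in the IR + saline and 47.5 in the IR + pilocarpine library, 7.79-fold higher (6.61 to 9.24). Igtp and Irgm2 of the same family were 6.88-fold (4.89 to 9.94) and 5.21-fold (4.44 to 6.14) higher. Their gene models overlap on the plus strand (chr11:58199556-58207591 and chr11:58199618-58222782), so reads may be shared. Guanylate-binding proteins followed, with Gbp2 at 1.68, 3.22 and 9.77 CPM (chr3:142620602-142638008) and Gbp4, whose model overlaps Gbp8 and Gbp9, 4.96-fold higher. Cxcl10, a chemokine that draws T cells (chr5:92346638-92348889, overlapping Art3 on the other strand), had 4 UMIs in the non-IR, 58 in the IR + saline and 123 in the IR + pilocarpine library, 23.6-fold higher (8.97 to 87.9). Zbp1, a sensor of unusual nucleic acids, had 13, 69 and 128 UMIs. Irf1 did not share the pattern, with 57.4, 41.1 and 57.5 CPM, and Irf8 was 1.27-fold lower (1.08 to 1.49). Olfr56, counted as an odorant receptor, went from 2.35 to 14.4 CPM, but its model spans the interferon-induced Ifi47 on the same strand and Tgtp1 and Tgtp2 on the other, so its counts cannot be assigned to 1 gene.

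In the IR + pilocarpine library Iigp1 and Gbp4 stood higher in fibroblast-like and myoepithelial-like than in acinar-like nuclei. Fibroblast-like nuclei held 37% of all Iigp1 UMIs of the IR + pilocarpine library, and the gene went from 47.6 to 382 CPM in them, 8.03-fold higher (5.95 to 11.1). Myoepithelial-like nuclei went from 3.42 to 85.2 CPM (3 and 179 UMIs). Acinar-like nuclei stood at 0.694 and 7.95 CPM. In granular or striated duct-like nuclei 5 members of the list were measured. Of these, 0 were at least 2-fold higher and 1, Irf8, was at least 2-fold lower. In that class 632 of 10541 genes were higher and 513 lower. All 20 listed genes summed to 119 and 139 CPM there. Gbp4 had 6 and 32 UMIs in acinar-like nuclei (0.463 and 2.47 CPM). It had 0 UMIs in non-IR and 98 in IR + pilocarpine myoepithelial-like nuclei, where it reached 46.7 CPM, and 22 and 206 UMIs in fibroblast-like nuclei, where it reached 134 CPM. Endothelial-like nuclei already had Gbp4 at 79.6 CPM without irradiation and 174 CPM with irradiation and pilocarpine. Cxcl10 had 0 UMIs in fibroblast-like and in myoepithelial-like nuclei of the non-IR library, against 37 and 44 UMIs in the IR + pilocarpine library. In macrophage-like nuclei Iigp1 stood at 15.7 and 20.8 CPM (6 and 15 UMIs), a ratio of 1.33 (0.486 to 4.17).

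Sequences before the start of genes of this group are shown because many share a short interferon element. In the 250 bases before the start in RefSeq (GRCm38.p6), GAAANNGAA was found on either strand for 11 of 14 listed genes with a RefSeq promoter, against 2211 of 27025 genes (8.18%) in all. It was found for 12 of 22 matched genes of the interferon response list and for 2 of 14 matched antigen presentation genes. These matches describe the letters and not a bound site. Capitals mark the match. Each sequence is written on the gene's own strand, where Gbp2 holds the element in reverse complement, at chr11:58214727-58214976 (plus strand) for Irgm2, chr3:142620413-142620662 (plus strand) for Gbp2 and chr5:92348890-92349139 (minus strand) for Cxcl10.
Irgm2: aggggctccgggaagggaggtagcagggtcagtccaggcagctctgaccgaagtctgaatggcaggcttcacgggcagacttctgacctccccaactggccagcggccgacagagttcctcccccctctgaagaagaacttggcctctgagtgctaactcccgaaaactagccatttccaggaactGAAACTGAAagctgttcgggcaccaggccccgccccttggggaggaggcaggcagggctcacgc
Gbp2: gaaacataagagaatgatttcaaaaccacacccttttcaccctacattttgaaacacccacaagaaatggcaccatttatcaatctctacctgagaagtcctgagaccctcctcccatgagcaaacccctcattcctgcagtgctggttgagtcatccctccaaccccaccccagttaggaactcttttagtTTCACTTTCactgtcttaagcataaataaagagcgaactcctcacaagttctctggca
Cxcl10: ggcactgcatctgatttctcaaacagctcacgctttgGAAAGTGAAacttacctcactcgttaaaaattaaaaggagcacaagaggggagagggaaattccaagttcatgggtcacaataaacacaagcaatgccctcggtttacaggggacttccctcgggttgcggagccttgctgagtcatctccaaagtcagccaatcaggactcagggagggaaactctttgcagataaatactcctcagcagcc

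The interferon response list, which holds mostly targets of type I interferon, had 17 of 29 measured members at least 2-fold higher, with a median log2 ratio of 0.89. Oas2, an antiviral RNA sensor, stood at 4.54, 16.3 and 17.2 CPM in the non-IR, IR + saline and IR + pilocarpine library, 3.80-fold higher (3.11 to 4.68). Ifi27l2a stood at 18.7, 60.1 and 58.8 CPM, 3.15-fold higher (2.85 to 3.49). For Ifit1 and Usp18 the IR + saline library was the highest of the 3, with 3.21, 11.2 and 6.98 CPM for Ifit1 and 16.4, 51.6 and 37.8 for Usp18. Both IR libraries thus lay above the non-IR one in these genes, whereas H2-Q7, Nlrc5, Iigp1 and Gbp2 were highest in the IR + pilocarpine library. In acinar-like nuclei 9 of 25 measured members were at least 2-fold higher.

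**Figure D3:**
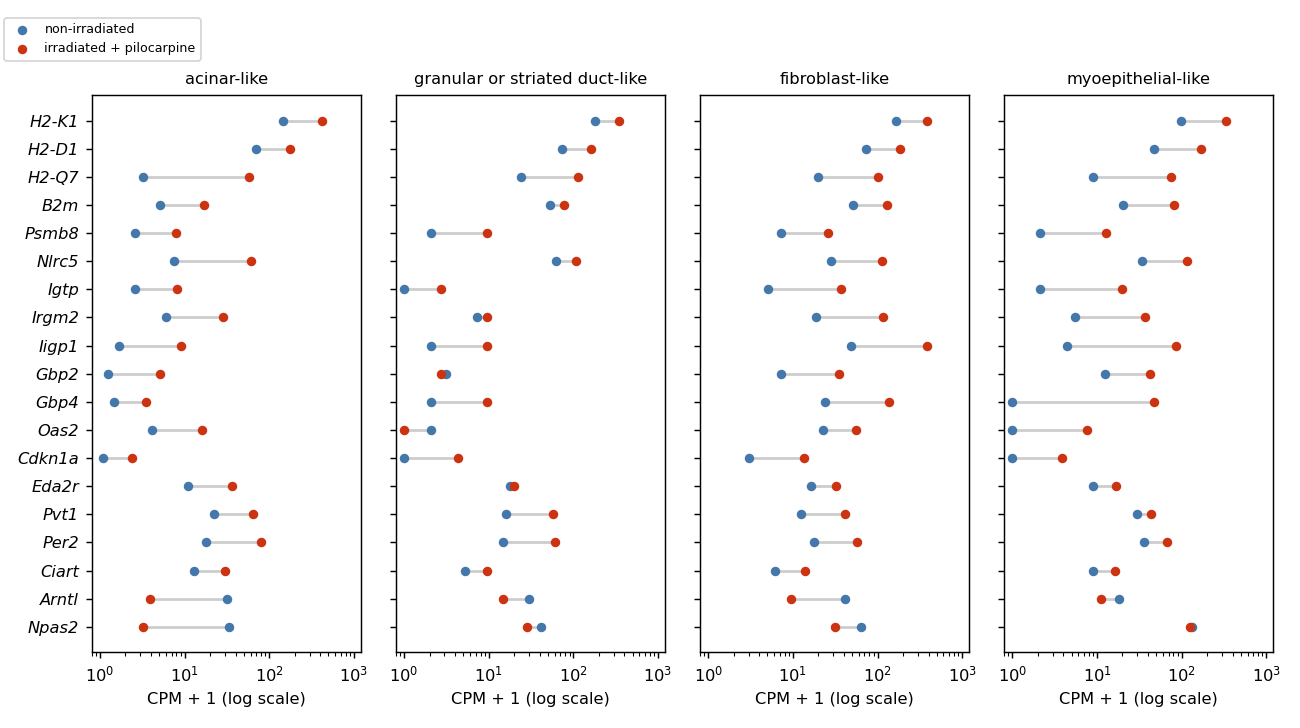
Each row is a gene and each panel a class of nuclei with at least 300 nuclei in both libraries; points give CPM + 1 on a log scale in the non-IR (blue) and the IR + pilocarpine library (red). In the acinar-like panel H2-Q7 lies at 2.24 and 56.8 CPM before the 1 is added, and Arntl and Npas2 run the opposite way.

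Targets of p53, which halts division and repairs or removes damaged cells, were higher as a group. Of 29 measured members, 12 were at least 2-fold higher, none was 2-fold lower and 28 had a ratio above 1, with a median log2 ratio of 0.67. Cdkn1a, the cell cycle inhibitor p21 (chr17:29090976-29100727), had 10 UMIs in the non-IR, 118 in the IR + saline and 126 in the IR + pilocarpine library, or 0.391, 4.04 and 3.78 CPM. The IR + pilocarpine value was 9.66-fold above the non-IR one (5.08 to 20.6). Gdf15, a stress cytokine, had 17, 99 and 112 UMIs, 5.05-fold higher (3.02 to 8.97). Eda2r, a death receptor of the TNF family, stood at 11.3, 31.9 and 30.6 CPM, and the long non-coding Pvt1 at 23.5, 63.4 and 62.8 CPM. The IR libraries were alike in these genes and both stood above the non-IR one. Phlda3, Zmat3, Ccng1 and Aen, further targets, were between 2.15-fold and 4.09-fold higher. Mdm2, the ubiquitin ligase that degrades p53, was 1.20-fold higher (1.14 to 1.27) and Trp53 itself 1.16-fold (1.04 to 1.29). In acinar-like nuclei 12 of 29 members were 2-fold higher, among them Eda2r at 9.95 and 34.8 CPM (3.50-fold, 2.87 to 4.29). Cdkn1a had 0 UMIs in non-IR and 19 in IR + pilocarpine endothelial-like nuclei, and 1 and 18 in acinar-like nuclei.

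Of the circadian clock genes, Arntl and Npas2 of the activating limb were lower in the IR + pilocarpine library and the measured repressors and outputs had ratios above 1. Arntl and Clock activate transcription of Per, Cry and output genes, whose products feed back to repress them. Arntl (also called Bmal1, chr7:113207465-113314126) stood at 35.5 CPM in the non-IR, 5.04 in the IR + saline and 7.1 in the IR + pilocarpine library, 4.99-fold lower in the last than in the first (4.32 to 5.79). Npas2, a stand-in for Clock, stood at 44.3, 8.84 and 17.9 CPM, 2.48-fold lower (2.24 to 2.74). Clock itself was 1.06-fold lower (1.01 to 1.12). Arntl and Npas2 were the 2 of 8 measured activators at least 2-fold lower. The 8 had a median log2 ratio of -0.10, with 6 ratios below 1, and summed to 701 CPM in the non-IR and 758 in the IR + pilocarpine library. All 13 repressors and outputs had a ratio above 1, with a median log2 ratio of 0.51, and 2 of them were at least 2-fold higher. Per2 (chr1:91415982-91459324) stood at 18.9, 94.7 and 74.5 CPM, 3.94-fold higher (3.58 to 4.36). Ciart, a clock repressor (chr3:95878503-95882251), stood at 8.96, 25.7 and 25.3 CPM, 2.83-fold higher (2.44 to 3.29). Both IR libraries lay on the same side of the non-IR one in Arntl, Npas2, Per2 and Ciart. The hour at which each gland was taken is not in the labels, so a difference in hour and an effect of the treatments cannot be told apart.

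The ratios of Arntl and Npas2 were not alike in all classes. In acinar-like nuclei Arntl went from 397 to 38 UMIs, 30.6 to 2.93 CPM, a ratio of 0.0958 (0.0668 to 0.134), and Npas2 from 32.2 to 2.24 CPM, a ratio of 0.0696 (0.046 to 0.101). In fibroblast-like nuclei the Npas2 ratio was 0.493 (0.329 to 0.735). In granular or striated duct-like nuclei, with 16 UMIs in the IR + pilocarpine library, it was 0.672 (0.35 to 1.23). In myoepithelial-like nuclei Npas2 stood at 132 CPM in the non-IR, 112 in the IR + saline and 126 in the IR + pilocarpine library, a ratio of 0.951 (0.762 to 1.19), an interval apart from the acinar one. Arntl there had 15 and 21 UMIs, a ratio of 0.585 (0.287 to 1.22). Per2 was higher in all 4 of the larger classes, from 1.89-fold (1.27 to 2.88) in myoepithelial-like to 4.61-fold (3.98 to 5.36) in acinar-like nuclei.

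The promoter of Ciart is shown because the repressing limb is known to be driven through E-boxes, CACGTG. This motif was found in the 250 bases before the start for 5 of 11 matched repressor and output genes (Per1, Cry1, Tef, Bhlhe41 and Ciart), for 0 of 7 matched activators and for 1854 of 27025 genes (6.86%) in all. Per2, the member with the largest difference, was not among the matches. The D-box TTATGNAA was found for 2 of the 11, Per1 and Per3, against 3.63% of all genes. Ciart held 3 E-boxes, in capitals, at chr3:95882229-95882478 on the minus strand.
Ciart: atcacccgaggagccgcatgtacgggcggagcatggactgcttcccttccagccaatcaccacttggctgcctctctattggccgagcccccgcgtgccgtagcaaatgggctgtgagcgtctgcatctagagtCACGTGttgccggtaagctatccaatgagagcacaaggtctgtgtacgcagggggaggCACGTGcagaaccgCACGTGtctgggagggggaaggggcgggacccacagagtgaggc

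**Figure D4:**
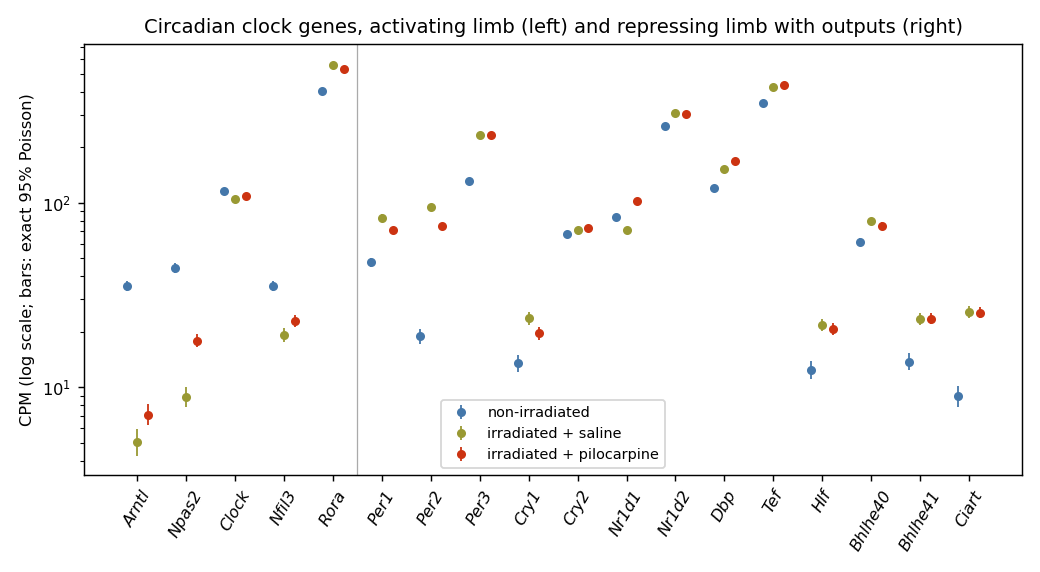
CPM on a log scale of clock genes in the 3 libraries, with exact Poisson intervals for counting error; the vertical line separates the activating from the repressing limb and outputs. Arntl and Npas2 were higher in the non-IR library (blue, 35.5 and 44.3 CPM), and Per2 and Ciart were lower in it (18.9 and 8.96 CPM).

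Several genes were lower in both IR libraries than in the non-IR one, and 2 of them, Rnf212b and Padi4, had 5 or fewer UMIs in each IR library. Rnf212b, which belongs to a family of meiotic ring-finger proteins (chr14:54814141-54854108, overlapping Homez on the other strand), had 717 UMIs in the non-IR, 5 in the IR + saline and 4 in the IR + pilocarpine library, 234-fold lower (90.9 to 861). Padi4, an enzyme that turns arginine in proteins into citrulline (chr4:140745865-140774236), had 305, 5 and 4 UMIs, 99.5-fold lower (38.5 to 367). Card14, a scaffold of NF-kappaB signalling in epithelia (chr11:119307768-119345375, overlapping Sgsh on the other strand), had 189, 18 and 17 UMIs. Rnf212b had 375 UMIs in acinar-like, 30 in myoepithelial-like, 24 in granular or striated duct-like and 18 in endothelial-like nuclei of the non-IR library, against 2, 0, 0 and 0 in the IR + pilocarpine library. Its non-IR levels in these 4 classes were alike, at 28.9, 34.2, 25.4 and 25.6 CPM, and the part of free RNA in them was not tested. Padi4 had 40 UMIs in non-IR endothelial-like nuclei and 0 in IR + pilocarpine ones. Extl1, of the exostosin family that builds heparan sulfate, had 392, 38 and 67 UMIs, and Masp2, a protease of the lectin pathway of complement whose model overlaps Tardbp on the other strand, had 531, 130 and 145. Igsf21, a cell adhesion molecule, had 888, 342 and 183 UMIs, and granular or striated duct-like nuclei held 231 of them in the non-IR and 18 in the IR + pilocarpine library. In acinar-like nuclei, where it was low, its ratio was 0.81 (0.401 to 1.61). Ccr4, a chemokine receptor of T cells, had 80, 6 and 10 UMIs and the antisense transcript Kank4os 51, 14 and 12. T or NK-like nuclei held 1 of the 80 Ccr4 UMIs of the non-IR and 2 of the 10 of the IR + pilocarpine library. The Ccr4 counts are therefore not read as a number of T cells.

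Secretory products of the acini included the highest and some of the lowest ratios. Of 18 measured members, 2 (Bpifa2 and Smr2) were at least 2-fold higher, 3 at least 2-fold lower and the median log2 ratio was -0.05. Smgc, submandibular gland protein C, a product of proacinar and intercalated duct cells (chr15:91838265-91861438), stood at 278 CPM in the non-IR, 33.9 in the IR + saline and 43.4 in the IR + pilocarpine library, 6.39-fold lower (6.04 to 6.77). Muc19, whose gene model overlaps Smgc on the same strand, had 128, 29 and 51 UMIs. Pigr, which carries immunoglobulin A into saliva, stood at 43.4, 8.88 and 18.6 CPM, 2.34-fold lower (2.12 to 2.58). Bpifa2, a secreted protein of acini also called parotid secretory protein (chr2:154008265-154016079), went the other way, with 39, 2371 and 1283 UMIs or 1.53, 81.3 and 38.5 CPM, 25.2-fold higher (18.3 to 35.6). Mup5, which is not on the list, is a major urinary protein with near-identical copies in the genome, and it stood at 60.1, 397 and 251 CPM, 4.17-fold higher (3.95 to 4.41). Pip, the prolactin-inducible protein, stood at 1524, 2600 and 2921 CPM. Bpifa2, Mup5 and Pip were higher in both IR libraries. Smr2 had 2, 2 and 19 UMIs. Bpifa2 in acinar-like nuclei went from 2.24 to 33.8 CPM, and in the IR + pilocarpine library it also stood at 31.2 CPM in fibroblast-like and 24.7 in endothelial-like nuclei. Cluster 8, unnamed and of high UMI counts, held 47.5% of its UMIs there. The part of free RNA in these values was not tested. Bpifa2 is also a product of neighbouring glands, so their markers stand beside it. The sublingual list summed to 6.81 CPM in the non-IR and 40.1 in the IR + pilocarpine library. Bpifa2 made up 1.53 CPM of the former and 38.5 CPM of the latter. Muc19, also on that list, was at least 2-fold lower, and Dcpp1, Dcpp2 and Dcpp3 had 1, 4 and 0 against 3, 1 and 1 UMIs. Of 4 measured parotid markers Bpifa2 was the one at least 2-fold higher.

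Smgc came from few nuclei. In the non-IR library 73 of 10635 nuclei (0.686%, exact interval 0.538 to 0.862) had at least 10 Smgc UMIs and held 84.1% of its UMIs, against 14 of 8376 (0.167%, 0.0914 to 0.28) in the IR + pilocarpine library and 10 of 8622 (0.116%) in the IR + saline one. The IR + pilocarpine library was the deeper of the 2 compared. The same nuclei held most of 2 further genes among the lowest ratios. Of the 73 non-IR nuclei, 68 had a UMI of Tll1, an astacin protease, and 64 a UMI of the fibrillar collagen gene Col11a1, and they held 85.2% and 88.5% of those genes' UMIs. Over all nuclei Tll1 (chr8:64014931-64206271) stood at 117, 22.7 and 19.5 CPM, 5.99-fold lower (5.50 to 6.53), and Col11a1 (chr3:114030540-114220718) at 31.3, 2.26 and 3.93 CPM, 7.98-fold lower (6.62 to 9.67). Of the 73 nuclei, 36 fell into the cycling-like cluster, which Tll1 and Col11a1 lead among other genes. Of the 73, 5 had a UMI of Mki67 and 5 a UMI of Top2a, genes of dividing cells. Of the 14 in the IR + pilocarpine library, 9 fell into cluster 8, an unnamed cluster of high-UMI nuclei, and their median was 25482 UMIs against 6269 for the 73.

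Genes of fluid secretion differed little by comparison. None of 22 measured members of the fluid secretion list was 2-fold apart, with a median log2 ratio of 0.03. Aqp5, the water channel of acini, stood at 171, 138 and 200 CPM, 1.17-fold higher (1.12 to 1.21). Chrm3, the main muscarinic receptor of acini, stood at 3356, 2763 and 3046 CPM, 1.10-fold lower (1.09 to 1.11), and Chrm1 at 11.8, 11.8 and 13 CPM with a ratio of 1.10 (0.949 to 1.28). The chloride channel Ano1 and the cotransporter Slc12a2, which load and release chloride, had ratios of 1.04 (1.01 to 1.07) and 1.02 (1.01 to 1.04). The members farthest from no change were Cldn3, a tight junction claudin, at 1.43-fold higher (1.26 to 1.63) and Rab27b, a GTPase of secretory granules, at 1.38-fold lower (1.34 to 1.41). In muscarinic and calcium signalling 2 of 43 were at least 2-fold higher, both low in level. Atp2c2, a calcium and manganese pump of the secretory pathway, had 4, 70 and 66 UMIs, 12.6-fold higher (4.71 to 47.8), and 34 of the 66 lay in acinar-like nuclei. Orai2, a pore of store-operated calcium entry, had 31, 99 and 126 UMIs. Atp2a2, the pump that refills the endoplasmic reticulum with calcium, stood at 474, 383 and 494 CPM, a difference of 1.04-fold whose direction changed with the scaling.

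Duct genes showed smaller differences. No granular tubule product of 19 measured was 2-fold apart, with a median log2 ratio of -0.01, and 9 had a ratio above 1 and 10 below. Within granular or striated duct-like nuclei 11 of 18 measured products had a ratio above 1, against 5178 of 10541 genes in that class, with a median log2 ratio of 0.22. Egf, a growth factor of the granular ducts, stood at 1092, 2195 and 662 CPM, 1.65-fold lower in the IR + pilocarpine than in the non-IR library (1.62 to 1.68). The IR + saline library had the highest level, and it also had the largest share of granular or striated duct-like nuclei. Within that class Egf went from 4852 to 3355 CPM, a ratio of 0.691 (0.656 to 0.729). The class held 16.4% of the Egf UMIs of the non-IR and 8.98% of those of the IR + pilocarpine library, while the unnamed cluster 8 held 37.4% and 53.6%. Klk1, a kallikrein, was 1.10-fold higher (1.07 to 1.12). Of 18 ductal ion transport genes, 13 had a ratio below 1. Slc9a3, a sodium-proton exchanger, stood at 6.45, 16 and 18.5 CPM, 2.87-fold higher (2.41 to 3.43). The epithelial sodium channel subunits Scnn1a, Scnn1b and Scnn1g were 1.31-fold, 1.40-fold and 1.29-fold lower, and Cftr 1.55-fold. Esrrg, an orphan nuclear receptor of oxidative tissues that is strong in ducts, stood at 6001, 7360 and 3557 CPM, 1.69-fold lower (1.67 to 1.70).

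The mix of nuclei differed between the libraries. Acinar-like nuclei made up 67.5% of the non-IR (66.6 to 68.4), 42.3% of the IR + saline and 57.8% of the IR + pilocarpine library (56.7 to 58.9), a difference of -9.74 points between the last and the first (-11.1 to -8.35). Among nuclei with at least 1000 genes this difference was -1.76 points (-3.58 to 0.069). Myoepithelial-like nuclei, marked by Acta2 and Myh11, made up 3.66% and 9.73%, 6.07 points more (5.35 to 6.81). Fibroblast-like nuclei made up 5.55% and 8.74%, endothelial-like 2.37% and 3.41%, macrophage-like 0.968% and 2.04% and T or NK-like 0.367% and 1.06%. Granular or striated duct-like nuclei made up 6.22% of the non-IR, 19.2% of the IR + saline and 4.42% of the IR + pilocarpine library, a difference of -1.81 points (-2.44 to -1.17) that was -0.678 at a clustering resolution of 2. Shares are of nuclei that passed sorting and the gene minimum, and 1911 barcodes of the IR + pilocarpine library fell below that minimum against 1425. Shares of UMIs, which weight the sums over all nuclei, differed more. The unnamed cluster 8 made up 2.84% and 3.80% of nuclei but held 19.3% of the UMIs of the non-IR and 34.4% of those of the IR + pilocarpine library. Acinar-like nuclei held 50.7% and 38.8% of UMIs. The fixed class mix holds shares of nuclei and not of UMIs. Fewer nuclei of a class and less RNA per nucleus cannot be told apart in the sums over all nuclei.

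**Figure D5:**
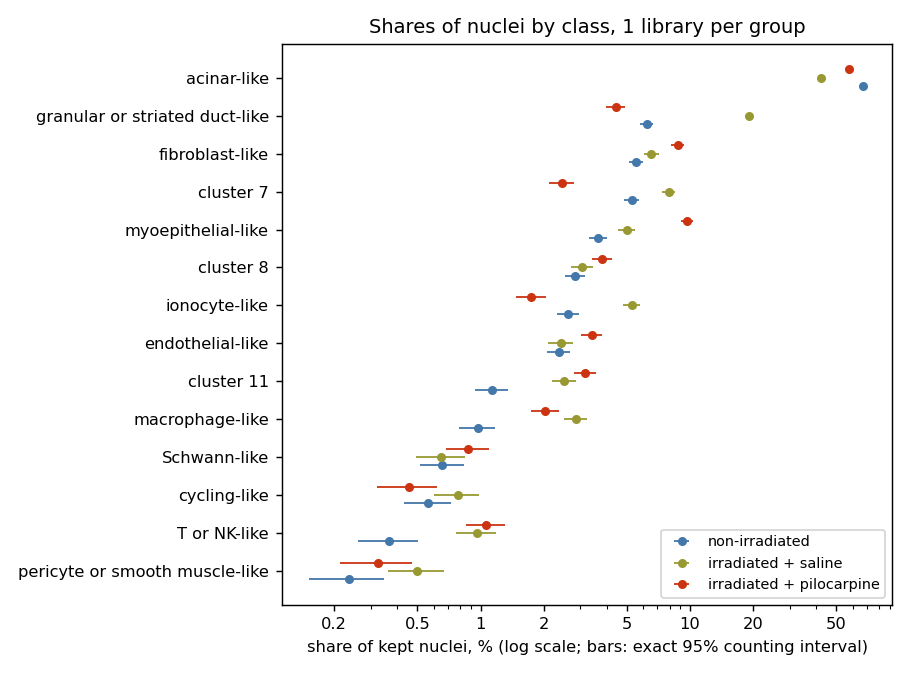
Share of kept nuclei per class in percent on a log scale, in the non-IR (blue), IR + saline (olive) and IR + pilocarpine library (red), with exact 95% counting intervals. Myoepithelial-like nuclei stood at 3.66% in the non-IR and 9.73% in the IR + pilocarpine library, acinar-like nuclei at 67.5% and 57.8%.

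Medians of some lists differed when class shares of nuclei were held fixed, a setting that leaves UMIs per nucleus as they were. Extracellular matrix genes had a median log2 ratio of 0.32, with 3 of 36 at least 2-fold higher, but -0.03 when the class shares were held at those of the non-IR library. Ccn2, a matricellular growth factor, was the member farthest from no change, with 1.84, 5.28 and 8.72 CPM and a 4.75-fold difference (3.48 to 6.60), and it was 5.29-fold higher within fibroblast-like (2.09 to 17.1) and 2.99-fold within myoepithelial-like nuclei (1.86 to 5.04). Thbs1, an adhesive matrix glycoprotein, was 2.22-fold higher (1.76 to 2.82), and the third member, the protease inhibitor Timp1, had 3, 9 and 11 UMIs. Col1a1 and Col3a1, the chief fibrillar collagens, had ratios of 0.903 (0.717 to 1.14) and 0.939 (0.862 to 1.02). Among progenitor and duct keratin genes 2 of 21 were 2-fold higher, one of them the keratin Krt19 with 5, 17 and 15 UMIs. Etv5, a transcription factor downstream of FGF signalling, stood at 9.07, 31.4 and 37.8 CPM, 4.17-fold higher (3.62 to 4.82), and went from 6.94 to 41.3 CPM within acinar-like nuclei. Sox10, a regulator of acinar and myoepithelial progenitors, was 1.72-fold higher (1.64 to 1.80). Krt5 and Krt14, keratins of basal and myoepithelial cells, were 1.79-fold and 1.82-fold higher, as was the myoepithelial actin Acta2 at 1.79-fold.

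Chaperones of the endoplasmic reticulum showed small differences. Of 30 unfolded protein response genes 27 had a ratio above 1, but 1 was 2-fold higher, and the median log2 ratio was 0.27. That gene was Sdf2l1, a chaperone cofactor, with 52, 100 and 164 UMIs (2.42-fold, 1.76 to 3.37). Dnajb9, a co-chaperone, was 1.63-fold higher (1.41 to 1.88). In acinar-like nuclei 29 of 30 had a ratio above 1, against 8521 of 15901 genes in that class. Proliferation genes were low in all libraries. Mcm6, a DNA helicase subunit, was 2.07-fold higher (1.65 to 2.62) and Top2a, the topoisomerase of dividing cells, 1.90-fold (1.53 to 2.39), with 1 of 20 members at least 2-fold higher. Of 17 glucocorticoid response genes 4 were at least 2-fold higher, of which Cdkn1a is also a p53 target, and Ddit4, an inhibitor of mTOR, was 2.05-fold higher (1.67 to 2.54). Lcn2 had 4, 12 and 23 UMIs, and Sult1a1, a sulfotransferase, stood at 3.32, 6.75 and 7.1 CPM. Fkbp5, a sensitive glucocorticoid target, had a ratio of 1.05 (0.997 to 1.11). Of 28 immediate early and stress genes 1 was at least 2-fold higher, the cytokine signalling inhibitor Socs3 with 8, 33 and 52 UMIs. Ier3, an early stress gene, was 1.89-fold higher (1.48 to 2.42). Within myoepithelial-like nuclei 9 of 20 measured members were at least 2-fold higher and 1 lower, against 996 and 353 of 12638 genes. Fibroblast-like nuclei had 5 higher and 3 lower of 19, against 829 and 404 of 12609 genes. Acinar-like nuclei had 2 higher and 1 lower of 24, and granular or striated duct-like nuclei 1 and 0 of 10.

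Genes of energy metabolism showed no 2-fold difference. None of 74 nuclear genes of oxidative phosphorylation, 13 mitochondrially encoded genes or 32 genes of energy sensing was 2-fold apart, and the medians of the log2 ratio were 0.08, 0.25 and -0.03. In the third list Prkag2, a subunit of AMP-activated kinase, was 1.37-fold lower (1.31 to 1.44). The widest differences in the first list were Ndufc2, a complex I subunit, at 1.62-fold (1.35 to 1.95) and Atp5g1, of ATP synthase, at 1.52-fold higher. Mitochondrial UMIs, which come from outside the nucleus, averaged 0.0334% of a nucleus's UMIs in the non-IR and 0.0582% in the IR + pilocarpine library, and mt-Co1 was 1.38-fold higher (1.31 to 1.45), while mt-Nd3, with 74, 84 and 63 UMIs, was 1.53-fold lower (1.08 to 2.18), a direction that turned when nuclei were thinned to equal depth. The part of that difference in the mitochondrially encoded genes was not tested. In the EGF family and its receptors 1 of 13 was at least 2-fold higher, the ligand Ereg with 3, 13 and 16 UMIs. Nrg1, a ligand of Erbb receptors, was 1.70-fold higher (1.52 to 1.91). Of 21 neurotrophic and axon guidance genes 1 was at least 2-fold lower, the neurotrophin Bdnf with 10, 3 and 2 UMIs, and Slit3, a guidance cue, was 1.80-fold higher (1.71 to 1.89).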

How the data were processed

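The deposited values are UMI counts per gene and barcode. The authors made them with Cell Ranger 7.0.1 on GRCm38, per the submitters' processing notes. The annotation, the strand setting and whether introns were counted are not given in the sources used here. Per the labels' protocols, frozen glands were broken up, nuclei were sorted by flow cytometry on a DNA dye, and libraries were made with a 10x Genomics chemistry. The files list 32285 genes.

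Of the barcodes, 10635 (non-IR), 8622 (IR + saline) and 8376 (IR + pilocarpine) passed both filters, with 25566617, 29177212 and 33358056 UMIs. Scrublet marked 0 nuclei in every library and so had not worked, and doublets remained. UMIs were summed per library or class and scaled to CPM. Ratios have exact conditional binomial intervals, shares Clopper-Pearson intervals and differences of shares Newcombe intervals, all at 95% and for counting error only. The ratio step was tested on simulated data.

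Clustering used scanpy 1.11.5 on 3000 variable genes, 30 components, 15 neighbours and Leiden resolution 1. List genes and mitochondrial, ribosomal, immunoglobulin and sex-linked genes did not enter it. Names needed 3 or more detected markers with a median level of 0.65 or more relative to the top cluster. They are this re-analysis's own and can depart from the study's. Clusters 7, 8 and 11 stayed unnamed. Cluster 8 had a median of 9544.5 UMIs in the non-IR and 18965.5 in the IR + pilocarpine library.

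Named genes were the 12 most above and 12 most below by the interval bound nearest to 1 (at least 50 UMIs, 2-fold, without mitochondrial, ribosomal, immunoglobulin, sex-linked and predicted genes), the 2 members of each of 22 lists with the largest log2 ratio, members that show a list's roles, and a fixed set of 10. Other genes that make up a count of 5 or fewer were named after their values were seen. Some genes the rule names are not reported here. The members and lists were chosen with earlier results of these data known. The interferon gamma list and the counts of Smgc nuclei and chromosomes were chosen after seeing values. Positions come from GENCODE M21 (GRCm38) and promoters from RefSeq (GRCm38.p6). Alternatives were edgeR 4.0.16 TMM and other scalings, other minimums, equal weight per nucleus, thinning to 800 UMIs, a fixed class mix and other clusterings.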

Additional observations from a re-analysis of the deposited data

How the results depend on the processing

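No paired analysis was possible because there was 1 library per group. The 708 genes at least 2-fold higher numbered 1186 with equal weight per nucleus, 384 with class shares held at those of the non-IR library, 1541 with at least 10 UMIs and 299 with at least 200 UMIs. The 127 genes at least 2-fold lower numbered 71 with nuclei thinned to 800 UMIs, 416 with at least 10 UMIs and 44 with at least 200 UMIs. The acinar share difference of -9.74 points was -1.76 among nuclei with at least 1000 genes, and the duct difference of -1.81 points was -0.678 at resolution 2. The UMI minimums change how many genes are tested. The fixed class mix removes differences in shares of nuclei but not in UMIs per nucleus. The cause of the other changes was not tested. The extracellular matrix median (0.32) was -0.028 with the fixed class mix, mt-Nd3 (log2 ratio -0.43) was 0.13 with thinned nuclei, and Atp2a2 was -0.00598 with TMM, -0.0129 with median-of-ratios scaling and -0.00211 with thinned nuclei. Of 61 named genes these 2 and Chrm1, whose interval holds 1 and which was -0.00217 with the fixed class mix, changed sign in 1 or more of 12 alternatives. The antigen presentation median stayed between 0.75 and 1.44 and the p53 median between 0.29 and 0.71, the lower values with a pseudocount of 10 CPM. Leaving out cluster 8, or the macrophage-like and T or NK-like nuclei, was chosen after seeing the data; the counts were then 699 and 667 higher and 127 and 127 lower. Genes with few UMIs, such as Cdkn1a, have wide counting intervals, and no setting replaces a second animal.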

Other observations

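Cluster 7, which stayed unnamed, was led by the lymphatic endothelial genes Mmrn1, Stab2 and Prox1 among the genes open to clustering. It made up 5.28% of nuclei in the non-IR, 7.92% in the IR + saline and 2.45% in the IR + pilocarpine library. Its best matching marker list was nevertheless the acinar one, at a level of 0.588 of the highest cluster. Ionocyte-like nuclei, which hold proton pumps, made up 2.62%, 5.28% and 1.74%.

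Of the 12 named genes farthest below in the IR + pilocarpine library, 5 lie on chromosome 4 (Padi4, Extl1, Igsf21, Masp2 and Kank4os), a count made after seeing them. Chromosome 4 held 963 of the 15811 genes tested and 9 of the 127 at least 2-fold lower, so 0.935% of its tested genes were lower against 0.803% of all. The strain of each group is not in the labels. Gm42418 and Gm26917, predicted genes, together took 0.796% of UMIs in the non-IR, 0.466% in the IR + saline and 0.333% in the IR + pilocarpine library.

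In the non-IR library, macrophage-like nuclei held 262 Smgc UMIs in 103 nuclei (686 CPM), against 5 UMIs in 171 nuclei of the IR + pilocarpine library. Doublets were not removed, and their part in this value was not tested.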
